A study of Homo sapiens with 2 samples.

Results

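These data are the peaks of IGF2BP3 that touch a 5′ UTR but no coding sequence in OE-19 cells, an established human line derived from a tumor at the junction of esophagus and stomach. The peaks were taken from 2 lists of LACE-seq, an assay in which protein is crosslinked to RNA by UV light, the protein is immunoprecipitated, and the cDNA ends of its RNA are amplified linearly and sequenced. A peak was kept when it overlapped the 5′ UTR exons of the canonical transcript of a protein-coding gene and overlapped no coding base of any transcript of any gene. By this rule 750 of 21142 peaks, called 5′ UTR peaks here although a median of under 50% of their bases were 5′ UTR, were found in replicate 1 and 1463 of 20799 in replicate 2, or 2213 of 41941 in all. Both samples were OE-19 cells grown in RPMI1640 medium, for which the labels give no treatment or genetic change, crosslinked with UV at 400 mJ and precipitated with an antibody to IGF2BP3, so there is 1 group with 2 samples. The study calls the samples biological replicates, while the labels do not say whether they came from separate cultures. No control library was analysed here, and comparisons are between the replicates and with the other peaks of the same list.

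The 5′ UTR is the stretch of an mRNA between its start and the start codon. It is the part that the scanning ribosome reads first, and it holds elements that set translation, such as upstream reading frames and iron-responsive elements. The IGF2BP proteins got their name from binding to the leader, that is the 5′ UTR, of IGF2 mRNA, while IGF2BP3 is now mostly studied as a reader of the RNA modification m6A at sites farther downstream. In the LACE-seq data the question was therefore which 5′ UTRs carried peaks, how strong they were and whether both replicates had them.

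The sequences of a few sites show what lies under these peaks. The 1st set is from 4 of the 10 pairs of overlapping 5′ UTR peaks that ranked highest in both lists, and shows GGAC, the core of the motif named by the study, in capitals. All sequences are from hg38, are written 5′ to 3′ on the strand of the gene, which is the minus strand in these 4 genes, and lie in the part of a peak that is 5′ UTR. RAB14 lies at chr9:121201840-121201869, RHOA at chr3:49411853-49411882, RAB6A at chr11:73760888-73760917 and NCOA6 at chr20:34825567-34825596.
RAB14: atcttGGACcagcccgaggaagatactgag
RHOA: gtttgcgactcgcGGACcggcgtccccggc
RAB6A: ttgggaagccagaGGACacccctggctcct
NCOA6: ggcgcgggcggcgGGACagacgggcgcacg
In RAB14, RHOA and RAB6A the 5′ UTR part of the peak held 1 match to GGAC, and in NCOA6 it held 4.

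The next set shows CGGCGG in capitals, a GC-rich repeat, in RAD23B and in CDC25A and IGF2, which were the 2 of 14 genes followed by name that had a 5′ UTR peak. RAD23B lies on the plus strand at chr9:107283385-107283414, CDC25A on the minus strand at chr3:48188001-48188030 and IGF2 on the minus strand at chr11:2139360-2139389, where the run begins at the first base of the annotated transcript.
RAD23B: cgtgaggaagcaCGGCGGcccgagttcgcg
CDC25A: cgaggccggtgtCGGCGGggcggggcggtc
IGF2: gcctgctctcCGGCGGagctgcgtgaggcc
The 5′ UTR parts of the peaks on CDC25A, IGF2 and RAD23B held no GGAC. A match describes the letters in these windows only.

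Peaks were found on the genes that mark an epithelial line. EPCAM, CDH1, KRT8, KRT18, KRT19 and ERBB2 each had peaks in both lists, and ERBB2, a receptor tyrosine kinase, had 11 in each. Of 5 genes that mark blood, stromal or endothelial cells, PTPRC had 1 peak in replicate 1, COL1A1 had 1 in replicate 2, and CD3E, COL1A2 and PECAM1 had none. The number of reads in each library is unknown, and the depth behind a peak is given by the reads piled up at its summit, a whole number that was worked back for each peak from its fold enrichment and its p-value. In both lists the lowest pileup of a 5′ UTR peak was 5 reads.

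Replicate 2 had many more 5′ UTR peaks than replicate 1, although its list was shorter. The share was 3.55% of the peaks in replicate 1 (Wilson 95% interval 3.31 to 3.81) and 7.03% in replicate 2 (6.69 to 7.39), with a mean of 5.29% ± 2.47 (SD, n = 2). The number in replicate 2 over that in replicate 1 was 1.95, whereas this ratio was 0.948 for all other peaks. For the 5′ UTR peaks that also reach coding sequence, of which there were 1762 and 2724, it was 1.55. These intervals cover counting error over peaks only, and with 1 group of 2 samples no test over samples could be made.

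The 5′ UTR peaks were GC-rich, and the excess in replicate 2 was largest where GC content was highest. The median GC content of the genome sequence under a 5′ UTR peak was 67.3% in replicate 1 and 70.5% in replicate 2, against 48.2% and 54.2% under the other peaks. High GC content was not particular to these peaks, since under the 5′ UTR peaks that reach coding sequence the medians were 64.5% and 68.7%. Below 50% GC there were 55 5′ UTR peaks in replicate 1 and 46 in replicate 2, a ratio of 0.836. From 60% to 65% GC there were 128 and 219, a ratio of 1.71. At 75% GC and above there were 114 and 365, a ratio of 3.20. The other peaks moved the same way, with ratios of 0.655, 1.31 and 2.48 in these GC classes. The part of GC content in the difference between the replicates was not tested.

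**Figure D1:**
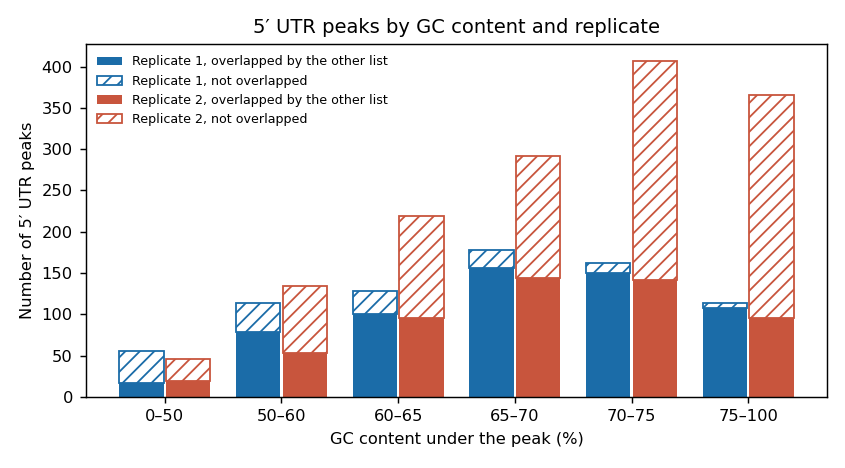
Number of 5′ UTR peaks (vertical axis) by GC content under the peak in percent (horizontal axis) in replicates 1 and 2. Filled bars are peaks overlapped by a peak of the other list and hatched bars are peaks that are not; at 75% GC and above replicate 2 had 365 peaks and replicate 1 had 114.

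By an overlap of at least 1 bp, most 5′ UTR peaks of replicate 1 were found again in replicate 2, but most of those in replicate 2 were not found in replicate 1. A peak of the other list overlapped 609 of 750 5′ UTR peaks of replicate 1 (81.2%, interval 78.3 to 83.8), where the share over all peaks of that list was 60.1%. In replicate 2 it overlapped 548 of 1463 (37.5%, interval 35.0 to 39.97), where the share over all peaks was 61.2%. The 5′ UTR peaks thus lay 21.9 percentage points above the other peaks in replicate 1 (Newcombe 95% interval 18.9 to 24.6) and 25.6 points below them in replicate 2 (difference −25.6, interval −28.1 to −23.0). These 2 differences are not separate results. The overlapping peaks were mostly the same sites counted from each list, divided by 750 and by 1463, so the opposite signs follow in part from these unequal numbers. The same limit applies to the classes of GC content and of reads below. Against 5′ UTR peaks that reach coding sequence the difference was 1.06 points in replicate 1, with an interval from −2.39 to 4.33, and −19.4 points in replicate 2, with an interval from −22.4 to −16.2. When summits had to lie within 50 bp of each other, the shares were lower, at 331 of 750 (44.1%) in replicate 1 and 306 of 1463 (20.9%) in replicate 2. The differences from the other peaks were then 10.4 and −14.8 points.

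The overlapping peak was itself a 5′ UTR peak without coding sequence for 472 of the 609 in replicate 1 and for 469 of the 548 in replicate 2. Nearly all of the rest, 135 in replicate 1 and 71 in replicate 2, were overlapped by a peak that reached coding sequence.

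Within classes of GC content the lists differed. In replicate 1 the share overlapping the other list rose from 30.9% below 50% GC to 93.9% at 75% GC and above, and the other peaks rose along with it from 47.4% to 91.3%. In the 5 classes from 50% GC upward the 5′ UTR peaks of replicate 1 lay 1.13 to 5.48 points above the other peaks, and each interval of the difference included 0. In replicate 2 the share was between 26.3% and 49.3% in every class. The 5′ UTR peaks of replicate 2 lay below the other peaks by 11.7 to 29.7 points in 5 classes, with intervals that did not include 0. In the class from 65% to 70% GC the difference was −0.485 points, with an interval from −6.64 to 5.68.

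**Figure D2:**
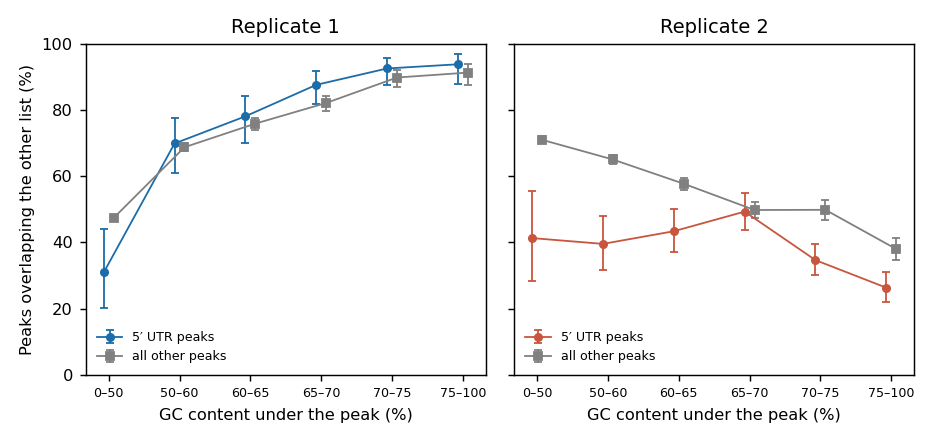
Share of peaks that overlap the other list in percent (vertical axis) by GC content under the peak in percent (horizontal axis), for 5′ UTR peaks (colored circles) and all other peaks of the list (grey squares). Bars are Wilson 95% intervals; in replicate 1 the series run together from 50% GC upward, and in replicate 2 the 5′ UTR peaks lie lower except from 65% to 70% GC.

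Peaks with more reads were found again more often. In replicate 2 the share rose from 13.6% of 257 5′ UTR peaks under 10 reads to 69.7% of 277 peaks with 30 reads or more. In replicate 1 it rose from 72.3% of 137 to 93.6% of 109 peaks in the same classes. At every pileup class the 5′ UTR peaks lay above the other peaks in replicate 1, by 14.9 to 45.0 points, and below them in replicate 2, by 10.3 to 25.6 points. The median pileup of the 5′ UTR peaks found in both lists was 16 reads in replicate 1 and 23 in replicate 2. Of those not found again it was 12 and 13 reads.

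Many 5′ UTR peaks with no partner lay in genes that the other replicate had marked elsewhere. Of the 141 unmatched peaks of replicate 1, 91 (64.5%) lay in genes with a peak of replicate 2. Of the 915 unmatched peaks of replicate 2, 742 (81.1%) lay in genes with a peak of replicate 1. For unmatched 5′ UTR peaks that reach coding sequence these shares were 65.1% and 75.9%. By genes, 727 of 19441 protein-coding genes with a canonical 5′ UTR had a 5′ UTR peak in replicate 1 (3.74%) and 1426 in replicate 2 (7.34%). In either list there were 1675 such genes (8.62%), and 478 had such peaks in both (2.46%), which is 65.7% of the genes of replicate 1 and 33.5% of those of replicate 2. Of the 948 genes found in replicate 2 alone, 203 (21.4%) had a 5′ UTR peak in replicate 1 that reached coding sequence. Of the 249 genes found in replicate 1 alone, 142 (57.0%) had one in replicate 2. Such peaks numbered 1762 in replicate 1 and 2724 in replicate 2, so these 2 shares have unlike bases.

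The 5′ UTR peaks were about as strong as other peaks by fold enrichment as the authors' peak caller gave it. Fold enrichment is the ratio of the reads at the summit to the local background, with 1 read added to each. The added read lowers the ratio most where the background is low. The median fold enrichment was 7.34 in replicate 1 (quartiles 6.26 and 8.92) and 7.96 in replicate 2 (6.58 and 10.4). For the other peaks of these lists the medians were 6.84 and 7.07. They rested on fewer reads, with a median pileup of 15 and 17 reads at the summit against 23 and 22 for the other peaks. The local background was lower too, with a median of 0.967 and 0.941 reads against 2.11 and 1.91.

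Within the pairs of overlapping 5′ UTR peaks, fold enrichment correlated between the replicates and was mostly larger in replicate 2. Over 472 such pairs Spearman's rho was 0.560 for fold enrichment and 0.709 for the pileup. For comparison, 12701 pairs were taken, 1 for each peak of replicate 1 with an overlap, 5′ UTR peaks included. Over these 12701 pairs rho was 0.666 for fold enrichment. Each rho is given as a description across sites that share their libraries. Fold enrichment was larger in replicate 2 in 374 of the 472 pairs (79.2%), with a median ratio of 1.27. Over the 12701 pairs it was larger in 58.2%, with a median ratio of 1.06. By GC content, the median ratio of the 5′ UTR pairs was 1.10 below 60% GC and 1.38 at 70% GC and above, while the other pairs gave 1.02 and 1.27. The summits of a pair lay a median of 43.5 bp apart.

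**Figure D3:**
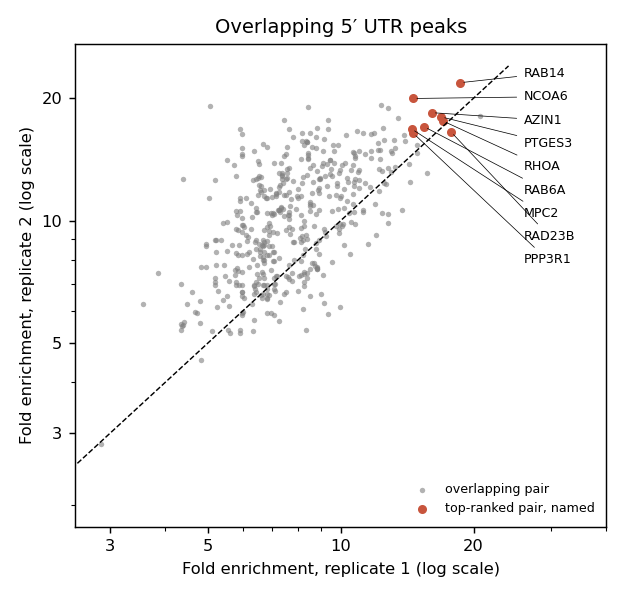
Fold enrichment of 472 overlapping pairs of 5′ UTR peaks in replicate 1 (horizontal axis, log scale) and replicate 2 (vertical axis, log scale), with the line of equal values dashed. Top-ranked pairs described in the text are labelled by gene; 374 of the pairs lie above the line.

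The pairs ranked highest in both lists lay in genes of varied function. RAB14, a small GTPase of endosomal traffic, had a fold enrichment of 18.7 in replicate 1 and 21.8 in replicate 2, with 57 and 85 reads at the summit (chr9:121201700-121202114 and chr9:121201653-121202116). PTGES3, the co-chaperone p23 of HSP90, had 16.9 and 18.0, with 54 reads in each list. Both pairs lay above the 99th percentile of fold enrichment of each list.

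RHOA, the small GTPase that governs the actin cytoskeleton, had 17.0 and 17.6 in its first exon. The peak on RHOA also overlapped an exon of another annotated gene, as did those on AZIN1, RAB6A and MPC2, and reads of overlapping genes cannot be told apart without strand. AZIN1, an inhibitor of the antizyme that degrades ornithine decarboxylase, had 16.1 and 18.4. RAB6A, a small GTPase of the Golgi, had 15.5 and 17.0. In these 3 genes the larger value was that of replicate 2.

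RAD23B, a protein of nucleotide excision repair, had 17.8 and 16.5 and was the only one of the 10 in a plus-strand gene. NCOA6, a coactivator of nuclear receptors, had 14.6 and 19.96. PPP3R1, the regulatory subunit of calcineurin, also had 14.6 in replicate 1 and had 16.4 in replicate 2. MPC2, a subunit of the mitochondrial pyruvate carrier, had 14.5 and 16.8, but only 21 and 51 bases of its peaks were 5′ UTR. In 8 of the 10 pairs fold enrichment was larger in replicate 2, and in 9 of the 10 GC content was above 60% in both lists.

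CDC25A, the phosphatase that activates cyclin-dependent kinases at the G1-S transition, was a 5′ UTR gene in replicate 2 alone. Its peak at chr3:48187988-48188282 lay wholly in the 5′ UTR and covered 295 of its 470 bases, ending 41 bp before the start codon. The fold enrichment was 5.33, below the median of the 5′ UTR peaks, with 7 reads at the summit, a −log10 q-value of 4.63 and a GC content of 74.2%. Replicate 1 had no peak there. Its 1 peak on CDC25A lay at chr3:48158793-48159264, near the other end of the gene, with a fold enrichment of 5.89 and 13 reads, and reached coding sequence.

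IGF2, the growth factor mRNA whose leader gave the protein family its name, also had a 5′ UTR peak in replicate 2 alone. It lay at chr11:2139281-2139586 with a fold enrichment of 9.32, 16 reads and a GC content of 84.3%, and covered the first 109 of 1167 bases of the canonical 5′ UTR. Both replicates had another IGF2 peak outside the 5′ UTR, at chr11:2131529-2132336 in replicate 1 and chr11:2131528-2132336 in replicate 2, with fold enrichments of 9.73 and 10.4. The other 12 of the 14 genes followed by name had no 5′ UTR peak in either list. These were CCNE2, CDC6, CDK4, CHEK2, E2F1, E2F3 and WEE1 of the G1-S transition, MYC, CCND1, and the family members IGF2BP1, IGF2BP2 and IGF2BP3. In MYC, CCND1 and IGF2BP2 the 5′ UTR was covered in both lists by a peak that reached coding sequence, and in CDK4 and CHEK2 in replicate 1 only. No peak at all was found on CDC6, E2F3 and IGF2BP1.

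Some long 5′ UTRs were covered over most of their length in both replicates, from 79.2% to 98.0% of the bases in the 5 genes with most bases covered. In KMT2D, a histone H3 methyltransferase, peaks covered 965 bases in replicate 1 and 1117 in replicate 2 of a 5′ UTR of 1219. In ROCK1, the kinase that acts downstream of RHOA, they covered 884 and 820 of 903. In XPO1, the nuclear export receptor, they covered 785 and 783 of 801. TGFB1, a cytokine with a long GC-rich leader, had 738 and 827 of 878 bases covered, and PABIR2 had 833 and 945 of 1000. The fold enrichment of these wide peaks was 8.20 and 8.23 in KMT2D, 7.62 and 10.5 in ROCK1, 10.1 and 9.72 in XPO1, 10.4 in each list in TGFB1, and 12.8 and 9.89 in PABIR2. An exon of another gene lay under the peaks on PABIR2 in both lists.

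**Figure D4:**
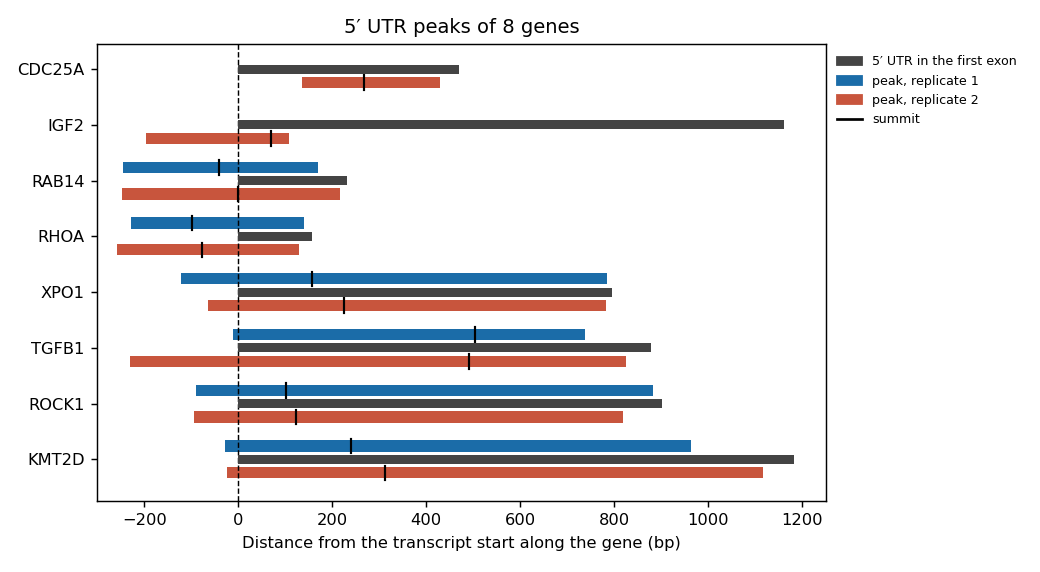
Peaks in the first exon of 8 genes by distance from the annotated transcript start in bp (horizontal axis), one gene per row, with the 5′ UTR of the first exon in dark grey, peaks of replicate 1 in blue, peaks of replicate 2 in red and summits as black ticks. Peaks on XPO1, TGFB1, ROCK1 and KMT2D run through most of the 5′ UTR in both lists, while CDC25A and IGF2 have a peak in replicate 2 only.

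Peaks with the largest fold enrichment and no partner differed between the lists. In replicate 2 they included PAG1, a membrane adaptor, at 17.0, ATP13A2, a lysosomal polyamine transporter, at 16.8, PIK3R1, the regulatory subunit of PI3-kinase, at 15.5, and TMCC1 at 15.3. These 4 genes had peaks of replicate 1 elsewhere, and GC content under the unmatched peaks ran from 74.1% in PAG1 to 78.8% in TMCC1. In replicate 1 they were RGS5, a regulator of G-protein signaling, at 12.7, SHOC2, a scaffold of the RAS pathway, at 12.5, ZNF148 at 11.5, FAM72C at 11.2 and DRAM2 at 10.7. The 31 bases at the summit occurred 5 times in the genome for ZNF148 and 4 times for FAM72C, so reads there may belong to copies. Of these 5 genes, SHOC2 and ZNF148 had a peak of replicate 2 elsewhere. An exon of another gene lay under the unmatched peaks on TMCC1, ZNF148 and DRAM2.

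The 5′ UTR peaks lay mostly over the annotated start, which the rule favors, since peaks of these widths must miss the coding sequence. The summit lay a median of 23 nt downstream of the start in replicate 1 and 15 nt in replicate 2, and the middle of the peak at 6.5 and −4 nt. In replicate 1, 302 of 750 summits (40.3%, interval 36.8 to 43.8) lay upstream of the start, and in replicate 2 630 of 1463 (43.1%, interval 40.5 to 45.6). With at least 50% of the peak bases in the 5′ UTR, which 305 and 565 peaks had, the middle lay a median of 106.5 nt downstream and 11.9% of summits lay upstream, as means of the replicates. This requirement moves the middle downstream by construction, since at most 50% of a peak can then lie upstream. It also favors summits downstream of the start. Over all 5′ UTR peaks, 77.7% and 86.9% reached upstream of the start, and a median of 44.7% and 42.9% of their bases were 5′ UTR. An exon of another gene lay under 26.7% and 25.6% of the peaks. Peaks lying wholly in the 5′ UTR, like that on CDC25A, were rare, at 67 (8.93%) and 81 (5.54%). The narrowest peaks were 293 and 294 bp wide. When the summits were shifted along the gene by 50% of that width, which was 146 and 147 nt, the share in the 5′ UTR rose from 51.1% and 51.3% to 75.6% and 76.1%. The share in introns rose too, from 8.67% and 5.67% to 15.1% and 16.3%, and that in coding sequence from 0 to 5.20% and 3.28%. A shift of this kind lowers the share upstream of the start by construction, here to 4.13% and 4.37%. Whether the deposited summits are offset from the crosslinked bases was not tested.

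**Figure D5:**
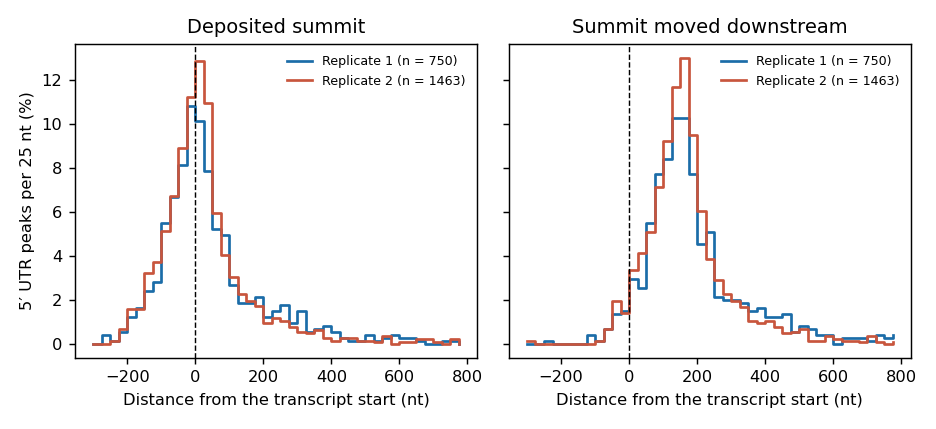
Share of 5′ UTR peaks per 25 nt in percent (vertical axis) by distance of the summit from the annotated transcript start in nt (horizontal axis), as deposited (left) and after moving each summit downstream by 146 or 147 nt (right). Lines are replicates 1 and 2, with 750 and 1463 peaks; distances beyond the axis are not drawn.

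The rule favored genes with long leaders, since a peak must miss the coding sequence. The median 5′ UTR length of the genes was 309 and 274 bases, against 136 over all 19441 genes, and the 5′ UTR was spread over more than 1 exon in 57.3% and 60.4% of peaks against 37.3% of genes. Peaks ended within 50 bp of the start codon, just inside the limit of the rule, in 159 cases in replicate 1 (21.2%) and 320 in replicate 2 (21.9%). The peak on CCNA2, the cyclin of S phase, ended 2 bp before the start codon in replicate 2, with a fold enrichment of 14.1. The peak on NFE2L2, the transcription factor of the oxidative stress response, ended 1 bp before it in replicate 1, at 6.22. Both were overlapped in the other list, but not by a 5′ UTR peak of the same kind.

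Peaks on later 5′ UTR exons stood apart from those on the first. There were 92 in replicate 1 and 106 in replicate 2, a ratio of 1.15, whereas the first exons had 658 and 1357, a ratio of 2.06. Their median GC content was 51.6% and 56.3%, against 68.3% and 70.9% in first exons. In replicate 1, 54.3% of those on later exons overlapped the other list against 85.0% of those on first exons, a difference of −30.6 points (interval −41.1 to −20.4). In replicate 2 the shares were 44.3% and 36.9%, and the interval of the difference, −2.04 to 17.2 points, included 0. This split was made after the data were seen.

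Several genes had peaks on more than 1 exon of their leader. ATXN1, whose 5′ UTR of 892 bases is spread over 7 exons, had 4 peaks in replicate 2 on exons 1, 2, 3 and 6, with fold enrichments of 8.29, 6.80, 5.91 and 9.11. The peaks on exons 2, 3 and 6 had summits in introns, with 48, 109 and 76 bases in the 5′ UTR and 11, 7 and 14 reads. The summit of the peak on exon 1 lay upstream of the start. Replicate 1 had the peak on exon 1 alone, at 8.92. NRIP1, a corepressor of nuclear receptors, had peaks on exons 1 and 3 in both lists, with 10.3 and 16.2 on exon 1 and 6.43 and 10.8 on exon 3. The peaks on exon 3 had summits in the intron, and only 61 of 294 and 105 of 362 of their bases were 5′ UTR. They also overlapped an exon of another gene in both lists. C11orf24 likewise had 2 peaks in each list, at 5.35 and 8.98 on exon 1 and 6.53 and 7.23 on exon 2. Its peak on exon 1 in replicate 2 overlapped an exon of another gene. RAI1, SLC7A1 and ST3GAL1 had as many peaks as NRIP1 and C11orf24.

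More 5′ UTR peaks lay in minus-strand genes than in plus-strand genes. The peaks have no strand of their own and were given the strand of the gene. In replicate 1, 512 of 750 were in minus-strand genes (68.3%) and in replicate 2 887 of 1463 (60.6%), while 49.5% of all genes with a canonical 5′ UTR are on the minus strand. Other peaks showed a like imbalance. Where a peak lay under 1 gene only, the share was 70.02% of the 5′ UTR peaks of replicate 1 and 61.6% of those of replicate 2, and that of the other peaks under 1 protein-coding gene was 68.9% and 67.6%. The difference was 1.10 points in replicate 1 (interval −3.18 to 5.08) and −6.07 points in replicate 2 (interval −9.28 to −2.95). The ratio of peak numbers, replicate 2 over replicate 1, was 2.42 in plus-strand genes and 1.73 in minus-strand genes. What sets this imbalance was not tested, and it touches every count by gene given here.

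Windows of just over 100 nt on the gene strand, centered on the 5′ UTR part of each peak, were searched for 5 short sequences and set beside 26069 windows of the same length tiled over all canonical 5′ UTR exons. GGAC was found in 38.3% of the windows in replicate 1 and 41.4% in replicate 2, against 38.3% of the tiles. The difference was 0.0143 points in replicate 1 (interval −3.45 to 3.59) and 3.17 points in replicate 2 (0.602 to 5.78). TGGAC, which contains GGAC, was found in 6.80% and 6.77% against 7.97% of the tiles, and both intervals of the difference included 0. The tiles lay wholly in 5′ UTR exons, whereas windows at peaks could run beyond them. Summits lay upstream of the start in 40.3% and 43.1% of peaks, so windows centered on them often held sequence outside the 5′ UTR. With windows centered on the summit, GGAC was in 35.6% and 36.8%, below the tiles, and the intervals of both differences included 0. TGGAC was then in 5.20% and 5.60%, also below the tiles. Its differences were −2.77 points (interval −4.18 to −0.913) and −2.37 points (−3.48 to −1.03), so both intervals excluded 0 in this setting. The share with GGAC thus had no direction that held in both settings. Where only windows wholly in a 5′ UTR exon were kept, GGAC was in 39.8% and TGGAC in 5.98%, as means of the replicates.

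CGGCGG was more frequent under the peaks than in the tiles, and ATG, which can start an upstream reading frame, was less frequent in replicate 2. CGGCGG was in 20.4% and 27.2% of windows against 15.3% of tiles, differences of 5.14 points (interval 2.37 to 8.20) and 11.9 points (9.68 to 14.3). ATG was in 33.7% and 27.7% against 40.2%, differences of −6.43 points (interval −9.78 to −2.92) and −12.5 points (−14.8 to −10.1). With windows centered on the summit, the difference for CGGCGG was 4.07 points (interval 1.37 to 7.08) and 8.87 points (6.70 to 11.2), while that for ATG was −1.10 points in replicate 1, with an interval from −4.58 to 2.49, and −9.34 points in replicate 2, with an interval from −11.7 to −6.85. ACACA was in 5.33% and 3.96% against 5.95%, and the interval excluded 0 in replicate 2 alone. With windows centered on the summit, the difference for ACACA was −1.81 points (interval −3.05 to −0.115) and −1.50 points (−2.49 to −0.289). Where only windows wholly in a 5′ UTR exon were kept, CGGCGG was in 24.5%, ATG in 26.6% and ACACA in 3.84%, as means of the replicates. The median GC content of the windows centered on the 5′ UTR part was 66.3% and 71.3%, against 65.3% in the tiles. The part of GC content in these differences was not tested.

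By gene groups, 5′ UTR peaks were found in at least 1 gene of each of the 12 lists examined. As a base, 17.5% of the 9558 genes with a canonical 5′ UTR and any peak had a 5′ UTR peak in either list. The lists were chosen with earlier results of these data known, and their counts are small, so they describe the genes and nothing more. Where a gene is given for 1 replicate alone, the other list had no 5′ UTR peak of this kind there. A peak that reached coding sequence could still overlap the site in the other list, as it did for EIF1AX, KLF5, MAX, FOSL2, FTL, EPRS1, CCNA2 and NFE2L2. An exon of another gene lay under at least 1 peak on AURKA, RB1, YTHDF3, ZC3H13, FTL, ATF5, EIF2S1, UBE2D3, GRHL2, GATA6, HIF1A and NFE2L2. Without strand, reads at these peaks may belong to the other gene.

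Of 13 genes of the insulin-like growth factor axis, 8 had a peak and 5 of these had a 5′ UTR peak. IGF1R, the receptor, had one in both lists at 10.3 and 11.2. INSR, the insulin receptor, had a peak at 11.8 that covered 496 of 523 bases of its 5′ UTR, IGF2R, the receptor that clears IGF2, had one at 8.13, and IRS1, the receptor substrate, had one at 3.12. These 3 and IGF2 were found in replicate 2 alone. The ligand IGF1 had no peak, and IRS2 and the 6 IGFBP genes had no 5′ UTR peak.

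Of 30 cell cycle regulators, 22 had a peak and 4 had a 5′ UTR peak, all in replicate 2 alone. Besides CCNA2 and CDC25A these were RB1, the pocket protein that restrains E2F, at 7.56, and AURKA, the mitotic kinase, at 6.03. The median over the list was 6.79, against 7.96 over all 5′ UTR peaks of replicate 2. CCNA2 was the only one of the 4 above that median.

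Among 19 genes of the m6A machinery, 4 of 16 with a peak had a 5′ UTR peak. The readers YTHDF3 and YTHDC1 had one in both lists, YTHDF3 at 10.6 and 13.7 and YTHDC1 at 7.17 and 9.33. The reader YTHDF1, at 8.79, and ZC3H13, a subunit of the writer complex, at 6.51, had one in replicate 2 alone. No 5′ UTR peak was found on METTL3, METTL14, WTAP, FTO or ALKBH5.

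Genes known for elements in their 5′ UTR were also examined. Of 6 genes with an iron-responsive element in the leader, EPAS1, a hypoxia-inducible factor, had a peak in both lists at 7.03 and 10.5, which lay wholly in the 5′ UTR in each. FTL, the ferritin light chain, had one in replicate 2 at 7.04, with 117 reads at the summit. The next list held 13 stress genes, some of them known for regulatory upstream reading frames. Of these 13, EPRS1 at 11.5, TRIB3 at 8.20 and ATF5 at 7.64 had a 5′ UTR peak in replicate 2. Peaks of replicate 1 overlapped those on EPRS1 and ATF5, but were not counted for these genes, and the one at ATF5 was a 5′ UTR peak assigned to the overlapping gene NUP62. ATF4 and DDIT3, the best known of this group, had none.

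Of 30 translation initiation factors, 4 of 26 with a peak had a 5′ UTR peak. EIF4G1, the scaffold of the cap-binding complex, had 7.09 and 6.995, and its relative EIF4G2 had 5.89 and 8.71. EIF1AX had one in replicate 1 alone at 11.7, and EIF2S1, the alpha subunit of eIF2, in replicate 2 alone at 7.89. Of 28 SR proteins and hnRNPs, all of which had a peak, 5 had a 5′ UTR peak, with HNRNPC at 5.68 and 8.73 and HNRNPH3 at 6.42 and 7.06 in both lists. HNRNPF at 12.4 and HNRNPA2B1 at 6.51 were in replicate 2 alone.

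Of 21 ubiquitin genes and E2 enzymes, 7 of 18 with a peak had a 5′ UTR peak. UBE2K had 15.7 and 13.1, and UBE2D2 had 9.98 and 11.3. UBE2D3 had 10.1 and 11.9 in peaks that touched its second exon, and 5.22 in replicate 2 in one that touched its first. Only 115 of 810 and 116 of 813 bases of the peaks at the second exon were 5′ UTR, and their summits lay in the intron. At the first exon 20 of 381 bases were 5′ UTR, and the summit lay 180 nt upstream of the start. UBE2J1 had 11.7 in replicate 2 alone. The medians over this list were 10.1 and 11.3, against 7.34 and 7.96 over all 5′ UTR peaks. UBE2E3, at 8.33, and UBE2D1, at 10.5, were also in replicate 2 alone. All of these are enzymes that carry ubiquitin to its targets.

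Of 24 receptor tyrosine kinases and adaptors, 6 of 17 with a peak had a 5′ UTR peak, 3 of them in both lists. GRB2, the adaptor that couples receptors to RAS, had 10.7 and 14.6 on exon 1. MET, the receptor of hepatocyte growth factor, had 5.79 and 10.6, and GRB7 had 2.87 and 2.83, with 78 and 54 reads at the summit. These were the lowest fold enrichments of all 5′ UTR peaks in either list. The local background at the GRB7 peaks was 26.5 and 18.5 reads, against medians of 0.967 and 0.941 over all 5′ UTR peaks. EPHB4, an ephrin receptor, had one at 6.92 in replicate 2 alone.

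Of 17 transcription factors of the esophagogastric lineage, 3 of 14 with a peak had a 5′ UTR peak. GRHL2 had 8.52 and 10.9 in both lists, KLF5 had 7.64 in replicate 1 alone with 78 reads, and GATA6 had 5.67 in replicate 2 alone. Only 54 of the 311 bases of the GATA6 peak were 5′ UTR, and its summit lay 191 nt upstream of the start. The summit on GRHL2 lay 270 nt upstream in replicate 1 and 13 nt upstream in replicate 2. Of 18 immediate early and stress factors, 6 of 15 with a peak had one, and none had one in both lists. HIF1A, the oxygen-regulated factor, had 12.8 and MAX, the partner of MYC, had 11.1 in replicate 2, and FOSL2 had 6.68 and NFE2L2 had 6.22 in replicate 1.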

How the data were processed

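Peak lists of IGF2BP3 LACE-seq were analysed from 2 samples of 1 group. The submitters' processing notes name fastp, HISAT2, MACS2 and hg38, whereas the study's methods name Bowtie and Piranha; versions are not given in the sources used here. The deposited files have the 10 columns of the narrowPeak layout. The authors called peaks in each replicate separately. The deposited fold enrichment is a ratio of the summit over the local background, taken here with 1 read added to each. P-values and q-values were deposited as −log10 values, with minima of 2.18 and 2.15 for −log10 q in replicates 1 and 2. The deposited score column repeats the q-value and was not used. Deposited starts, ends and summits are in bp, with no strand for any of the 41941 peaks. The 46 and 36 peaks on scaffolds outside the annotation could not be 5′ UTR peaks.

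Peaks were set on GENCODE 44 canonical transcripts. A peak on several 5′ UTRs was given to the gene with a named symbol and then the most 5′ UTR bases; such peaks numbered 35 and 68. Overlap was counted from 1 bp. The whole number of reads at each summit that gives both fold and p-value under a Poisson distribution was found for all peaks (tolerance 0.001 on the −log10 p). Shares have Wilson and differences Newcombe 95% intervals, which cover counting error over peaks, not replicate spread. Reads without molecular identifiers are not independent molecules. Motifs were read on the gene strand. Scripts ran in Python 3.11.15 with pandas 2.3.3, scipy 1.17.1 and statsmodels 0.14.6, and were tested on simulated data.

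The members and gene lists were chosen with earlier results of these data known. Genes named were 14 set by name, the 10 pairs highest by the lower of their percentiles in the lists, the 5 unmatched peaks of each list with the largest fold, the 5 genes with most 5′ UTR bases covered in both lists, the 3 with most peaks, where 3 others tied with the last, and up to 4 of each of 12 lists; others named were chosen after their values were seen. Genes that meet this rule but are not described are not reported here. Alternatives changed the overlap, the peaks, the membership, the windows and the replicates. Splits by gene strand, windows wholly in a 5′ UTR exon and the split by exon were added after the data were seen.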

Additional observations from a re-analysis of the deposited data

How the results depend on the processing

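Over 15 results and 13 settings, 91 alternative values were computed, and 22 more came from 1 replicate alone. Of the 91, 67 kept their direction or stayed within the replicate spread or, for ratios and gene counts, a set band. A further 23 moved beyond these limits and 1 changed sign. The difference from other peaks in replicate 2 became 31.3 points when overlap was counted only with a 5′ UTR peak of the other list, which other peaks can seldom meet by construction. With at least 50% of the peak bases in the 5′ UTR, the share of all peaks was 2.08%, the median distance of the peak middle from the start 106.5 nt in place of 1.25, summits upstream of the start 11.9% in place of 41.7%, and genes in both lists 170 in place of 478. With at least 15 reads at the summit, the ratio of peak numbers was 2.17, the ratio of median fold enrichment to that of other peaks 1.29 in place of 1.10, the distance 18 nt, upstream summits 38.3% and genes in both lists 253. Without peaks on an exon of another gene, the distance was 14 nt and upstream summits 39.5%. Plus-strand genes alone gave a share of 2.02% and a ratio of 2.42, and minus-strand genes a ratio of 1.73. Requiring at least 50% 5′ UTR bases moves the peak middle downstream by construction and favors summits downstream of the start. The cause of the other shifts was not tested, other than that fewer peaks enter each. Of 20 motif values, 9 moved, most of them with windows of 51 nt.

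Each replicate alone gave a share from 3.55% to 7.03%, overlap from 37.5% to 81.2%, a fold ratio from 1.07 to 1.13, median GC from 67.3% to 70.5%, a distance from −4 to 6.5 nt and upstream summits from 40.3% to 43.1%; ratios between replicates and genes in both lists need both. No paired analysis was possible because there is 1 group. Depth limits what the lists show of peaks with few reads, and the lack of a partner there is not evidence of no binding.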
